A study of Mus musculus with 12 samples.

Results

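The 42 imprinted genes described here were taken from a fixed list of known imprinted genes of the mouse, out of 76200 genes annotated on the autosomes and the X chromosome, and each was read over its gene body and 10 kb on either side. All 42 lie on autosomes. The measures read in these windows were the methylation level of each gene start, taken over 500 bp on either side, the level of each hypomethylated region (HMR, a stretch of low methylation that the study had called), and the level of each run of CpGs near 50%. Of 86245 merged HMRs, 209 fell into the windows, and of 23655 runs of CpGs near 50% found on the autosomes, 97 did.

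DNA methylation had been measured by tagmentation-based whole-genome bisulfite sequencing in 12 libraries of sorted β cells. The mice carried Myt1cCre, Ngn3nCre, Rosa26eYFP and InsApple, so that eYFP marked the β cells whose islet progenitors had expressed both Myt1 and Ngn3 (eYFP+), and β cells without eYFP came from progenitors with Ngn3 but without Myt1 (eYFP-). Apple marked the insulin-expressing cells of both subtypes, and all groups carried all of these alleles. There were 2 libraries per subtype from postnatal day 2 (P2) and 4 per subtype from postnatal day 60 (P60), and each combined cells from several sorts of pooled mice. The titles name sorted β cells but call the reporter eGFP, and the characteristics name the cells as islet cells, whereas the genotype and the sorting protocol name eYFP.

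Reads had been deposited as 1 pool per subtype and stage, with a mean of 24.4 and 24.6 reads per CpG in the P2 eYFP- and eYFP+ pools and of 44.1 and 43.9 in the P60 pools, so that a level has no replicate error, and single libraries carry only the positions of their HMRs. The names of the P2 and P60 library files carry different prefixes, and stage and this prefix cannot be told apart. The HMRs of each of the 12 libraries lay closer to those of the pool of its own subtype than to those of the other. Of 254 X-chromosome HMRs found in every P60 male library and in no P60 female library, the P2 eYFP- library labelled female had 92.5% and the one labelled male 13.4%, against 12.99% and 84.25% in the eYFP+ libraries, so that the labels of the P2 eYFP- libraries went against these HMRs. Both libraries entered the same pool, and each P2 pool held 1 library of either kind. Among β-cell markers, 5 of 8 starts were below 35% in all pools (Mafa, Pdx1, Nkx6-1, Iapp and Slc2a2). This held for 2 of 5 starts for other islet cells, 1 of 4 for acinar cells and 1 of 2 for duct. It held for 0 of 2 each for blood (69.4 to 82.0%) and endothelium (52.1 to 73.8%). Among the β-cell markers, the starts of Ins2 (68.98 to 78.57%) and G6pc2 (79.74 to 84.97%) were highly methylated in all pools. The Ins1 start was at 28.26% in eYFP- and 35.06% in eYFP+ cells at P2. At P60 it was at 7.865% and 5.742%.

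Genomic imprinting is the expression of a gene from the copy of 1 parent. It is set by control regions that are methylated in either the egg or the sperm and then kept methylated on that parental copy in the cells of the body, so that a sequencing experiment which does not separate the parental copies reads a level near 50%. The zinc finger protein ZFP57 binds a short methylated motif in such regions and is known for keeping their methylation through early development. At H19 the protein CTCF binds the unmethylated maternal copy. In β cells imprinted genes such as Cdkn1c, Grb10, Igf2, Dlk1 and Nnat are known for roles in growth, insulin signalling and insulin secretion. The reads used here were not assigned to parental copies, so a pooled level near 50% cannot be told apart from a mixture of methylated and unmethylated cells.

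Runs of CpGs near 50% (intermediate stretches) were called on the summed P2 pools, as overlapping windows of 10 neighbouring CpGs at 35 to 65%, with at least 15 CpGs in all. They were then read in the P60 pools, whose libraries had no part in the calling. The P2 levels chose the stretches, so P60 against P2 differences and p-values in them are not independent of that choice. The sequences below come from GRCm39 (mm39), plus strand, and all 21214130 CpG positions read from the deposited tables held a CG there. They are shown because these stretches include the control regions on which the results turn. Capitals mark the motif TGCCGC of ZFP57 on either strand (GCGGCA on the other). In the H19 sequence they mark instead GGNGGCAG, the core letters of the CTCF motif, or its reverse complement.
Peg10/Sgce (chr6:4747196-4747315): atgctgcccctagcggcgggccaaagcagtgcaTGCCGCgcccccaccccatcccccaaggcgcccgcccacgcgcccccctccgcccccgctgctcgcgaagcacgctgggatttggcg
Peg3/Usp29 (chr7:6733055-6733174): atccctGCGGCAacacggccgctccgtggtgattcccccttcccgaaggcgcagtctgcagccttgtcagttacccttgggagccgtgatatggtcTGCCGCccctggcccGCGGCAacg
Snrpn (chr7:59654830-59654949): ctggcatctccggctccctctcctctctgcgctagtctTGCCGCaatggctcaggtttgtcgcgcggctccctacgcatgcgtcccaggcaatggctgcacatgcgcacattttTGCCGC
Kcnq1/Kcnq1ot1 (chr7:142849365-142849484): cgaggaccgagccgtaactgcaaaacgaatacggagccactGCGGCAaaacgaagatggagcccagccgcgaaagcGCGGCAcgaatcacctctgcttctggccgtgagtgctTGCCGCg
Mest/Copg2 (chr6:30738174-30738293): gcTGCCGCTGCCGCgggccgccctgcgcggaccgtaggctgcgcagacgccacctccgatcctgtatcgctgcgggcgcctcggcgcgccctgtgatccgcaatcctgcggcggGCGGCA
Grb10 (chr11:11976213-11976332): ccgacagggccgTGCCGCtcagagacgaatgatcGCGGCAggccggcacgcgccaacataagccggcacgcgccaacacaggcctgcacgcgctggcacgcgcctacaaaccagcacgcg
H19 (chr7:142134011-142134130): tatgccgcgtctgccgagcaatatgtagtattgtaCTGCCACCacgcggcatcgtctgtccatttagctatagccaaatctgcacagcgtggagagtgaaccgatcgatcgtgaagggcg

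Each of these windows of 120 bases was chosen as the part of its stretch with the most matches of the motif and then the most CpGs. The Peg3 window, just inside the start of a zinc finger gene, was at 46.1% and 55.02% at P2 and 46.3% and 41.1% at P60, given here and below for eYFP- and then eYFP+ cells. The Mest window was at 46.3% and 61.4% at P2 and 52.2% and 54.4% at P60. The Grb10 window was at 56.3% and 66.5% at P2 and 48.9% and 45.7% at P60. The H19 window was at 57.8% and 52.8% at P2 and 47.1% and 43.6% at P60. Over the 7 windows the lowest level was 35.5%, at Snrpn in P60 eYFP- cells, and the highest 67.0%, at Kcnq1ot1 in P2 eYFP- cells, so that single short windows spread more widely than the whole stretches below. Windows chosen in the same way in long stretches of Meg3 and Gnas are not shown as sequence. The Meg3 window reached lower, at 28.7% and 46.7% at P2 and 34.9% and 39.4% at P60. The Gnas window was at 38.9% and 51.2% at P2 and 42.1% and 39.5% at P60.

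A pair of shorter stretches in the same gene windows is shown for contrast, because the windows of 120 bases were near 50% at P2 and above 80% at P60. The first lies in an intron of Grb10, with 1 match of TGCCGC, and the second in an intron of Trappc9, with none.
Grb10 (chr11:11883173-11883292): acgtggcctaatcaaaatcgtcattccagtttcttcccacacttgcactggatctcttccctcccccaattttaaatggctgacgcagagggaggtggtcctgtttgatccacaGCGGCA
Trappc9 (chr15:72891665-72891784): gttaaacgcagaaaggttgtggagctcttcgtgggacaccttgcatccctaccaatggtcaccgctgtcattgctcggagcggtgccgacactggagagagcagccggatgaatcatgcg

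The Grb10 intron window had 4 CpGs at 48.6% and 44.6% at P2 and 84.1% and 84.6% at P60. The Trappc9 intron window had 8 CpGs at 47.03% and 45.2% at P2 and 83.1% and 81.1% at P60. Over central windows of 1000 bp, TGCCGC or its reverse complement was found in 19 of the 23 stretches of imprinted genes with at least 60 CpGs (82.6%) and in 11 of the 74 shorter ones (14.9%). It was found in 14.4% of the shorter stretches elsewhere in the genome, in 48.6% of the 37 long stretches elsewhere, and in 19.6% of all gene starts. These windows also differed in CpG content, with a median of 59 CpGs in the long stretches of imprinted genes, 58 in the long stretches elsewhere and 17 in the shorter stretches of imprinted genes. Over their full length, all 23 long stretches held the motif, 1 to 14 times with a median of 5. GGNGGCAG was found 6 times in the H19 stretch, or 1.31 times per kb, and it was denser in a Gnas stretch, with 11 matches or 1.51 per kb. In the windows of 1000 bp it was found in 30.4% of the long stretches of imprinted genes, in 56.8% of those elsewhere and in 30.9% of all gene starts.

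In the longest intermediate stretches of the imprinted genes, the level stayed near 50% in both subtypes and at both stages. All 23 stretches with at least 60 CpGs in the windows were still at 35 to 65% in both P60 pools, against 29 of 37 stretches of this size elsewhere (78.4%), and over all stretches of the genome 59.8% were. The 37 include the stretches just upstream of the Rasgrf1 and Zdbf2 windows, given below, which both stayed in the band. They also include stretches over starts of the protocadherin genes Pcdhb7, Pcdhga9 and Pcdhga12. Others, at chr3:3004966-3014028 and chr11:3050286-3054771, had 271 and 320 mean reads per CpG at P2, far above the pool means. All of these stayed in the band as well, and their part in the 78.4% was not tested. The size limit of 60 CpGs was chosen after the data were seen, and a shorter stretch between Dlk1 and Meg3, described with that cluster, left the band. The median level of the 23 stretches was 48.3% and 49.2% at P2 and 50.5% and 51.4% at P60. The lowest value in any pool was 41.5% and the highest 60.6%. The 4 pools of a stretch spanned 0.693 to 12.5 percentage points, with a median of 5.33, and the span was under 5 points in 11 stretches and under 10 in 22. Counting error alone gave 95% Wilson intervals 4.02 to 16.3 points wide.

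**Figure D1:**
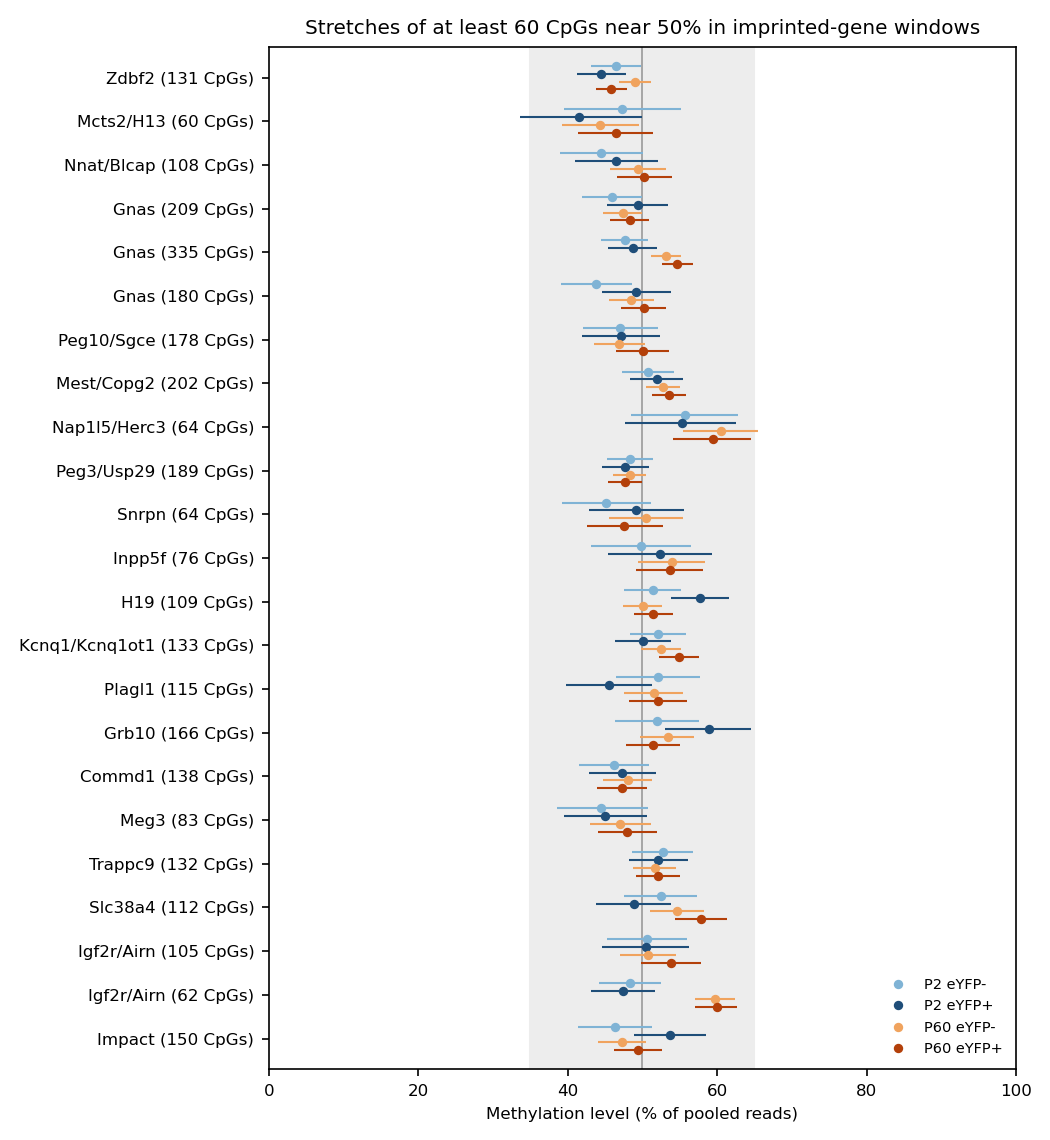
Methylation level (x axis, percent of pooled reads) of the 23 intermediate stretches with at least 60 CpGs in the windows of imprinted genes, with 1 row per stretch, points for the 4 pools and lines for 95% Wilson intervals of counting error. All points lie between 41.5% and 60.6%, inside the grey band of 35 to 65%, and the widest gap between stages is in the Igf2r/Airn stretch with 62 CpGs.

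Most of the long stretches lie at regions known to be methylated on the maternal copy. Peg10, which encodes a retrotransposon-derived protein needed in the placenta, and Sgce, which encodes a sarcoglycan, share a promoter, and the stretch of 178 CpGs over it (chr6:4746419-4749483) was at 47.1% and 47.1% at P2 and 46.9% and 50.02% at P60. Peg3, a zinc finger gene, and Usp29, a ubiquitin protease gene, also start side by side, and their stretch of 189 CpGs (chr7:6728715-6737441) was at 48.3% and 47.7% at P2 and 48.3% and 47.6% at P60. Its 4 levels differed by less than 1 point. For eYFP- cells the stage difference was 0.00 percentage points, 95% interval -3.80 to 3.79. The stretch of 202 CpGs in Mest (chr6:30733876-30740536), over inner starts of this gene of a hydrolase-like protein, was at 50.8% and 51.9% at P2 and 52.8% and 53.5% at P60. At Snrpn, a gene of an RNA-splicing protein in the Prader-Willi region, the stretch of 64 CpGs (chr7:59652888-59655044) was at 45.2% and 49.2% at P2 and 50.5% and 47.6% at P60. In these 4 stretches the 95% interval of each stage and subtype difference held 0.

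The start of Kcnq1ot1, an antisense RNA that silences its neighbours on the paternal copy, lay in a stretch of 133 CpGs in an intron of Kcnq1 (chr7:142844726-142851032), at 52.1% and 50.1% at P2 and 52.5% and 54.9% at P60. The start of Airn, the antisense RNA that silences Igf2r, lay in a stretch of 105 CpGs (chr17:12959912-12961953) at 50.6% and 50.4% at P2 and 50.7% and 53.9% at P60. At Plagl1, a zinc finger growth regulator linked to transient neonatal diabetes, the stretch of 115 CpGs (chr10:12965787-12968072) was at 52.1% and 45.5% at P2 and 51.5% and 52.1% at P60. The interval of the stage and subtype differences held 0 in the Airn and Plagl1 stretches. At Kcnq1ot1 the eYFP+ stage difference was 4.83 percentage points, 95% interval 0.18 to 9.46, which left out 0 (Fisher's exact test, adjusted p = 0.103). At Grb10, an adaptor that dampens insulin and IGF signalling, the stretch of 166 CpGs (chr11:11974674-11977097) was at 51.99% and 58.9% at P2 and 53.4% and 51.4% at P60. Its highest value, in P2 eYFP+ cells, had an interval of 53.04 to 64.6%, and the stage difference in that subtype was -7.50 percentage points, 95% interval -14.19 to -0.60 (Fisher's exact test between pools, adjusted p = 0.669). The test compared block-averaged levels, which were closer together, at 57.8% at P2 and 55.3% at P60 in that subtype.

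The Gnas locus, which encodes the stimulatory G protein alpha subunit from several starts, held 3 long stretches. The most upstream, with 209 CpGs and starts of Gnas and its antisense gene Gnasas1 (chr2:174123951-174128958), was at 45.9% and 49.4% at P2 and 47.3% and 48.3% at P60. The next, with 335 CpGs over further starts of both genes (chr2:174137241-174144520), was at 47.6% and 48.7% at P2 and 53.2% and 54.7% at P60. It had the smallest counting error and its level was higher at P60 in both subtypes, by 5.57 percentage points, 95% interval 1.80 to 9.31 in eYFP- cells (Fisher's exact test, adjusted p = 7.91e-05), below the minimum of 10 points for a call. Block-averaged levels, which the test compared, were 48.4% at P2 and 57.2% at P60 in eYFP- cells. The third, with 180 CpGs with starts of Gnas and Gm30189 (chr2:174167331-174170805), was at 43.8% and 49.2% at P2 and 48.5% and 50.2% at P60. The bases 1 to 3 kb outside this stretch were at 8.24 to 10.5%.

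Nnat, which encodes the membrane protein neuronatin known for a role in insulin secretion, lies in an intron of Blcap, and its stretch of 108 CpGs (chr2:157400568-157403317) was at 44.5% and 46.5% at P2 and 49.4% and 50.3% at P60. Retrogenes inside host genes also had long stretches. The stretch of Nap1l5, in an intron of Herc3 (64 CpGs, chr6:58883171-58884474), was at 55.7% and 55.3% at P2 and 60.6% and 59.4% at P60. That of Mcts2, in an intron of H13 (60 CpGs, chr2:152528200-152529209), was at 47.3% and 41.5% at P2 and 44.3% and 46.4% at P60. An intron of Commd1, which hosts the imprinted retrogene Zrsr1, held a stretch of 138 CpGs (chr11:22921545-22924906) at 46.2% and 47.3% at P2 and 48.01% and 47.3% at P60. Nap1l5 stood highest of the 4 in each pool. Its interval and that of Mcts2 in P60 eYFP- cells, 55.5 to 65.5% and 39.2 to 49.5%, did not overlap.

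At Trappc9, which hosts the imprinted RNA Peg13, the stretch over the Peg13 start (132 CpGs, chr15:72678725-72683034) was at 52.7% and 52.1% at P2 and 51.6% and 52.1% at P60. An inner start of Inpp5f, an inositol phosphatase gene, lay in a stretch of 76 CpGs (chr7:128289282-128290748) at 49.8% and 52.4% at P2 and 53.96% and 53.6% at P60. At Impact, a regulator of translation on chromosome 18, the stretch of 150 CpGs was at 46.3% and 53.7% at P2 and 47.3% and 49.4% at P60. The P60 levels of these 3 lay between 47.3% and 54.0%. Slc38a4, an amino acid transporter gene, had a stretch of 112 CpGs over an inner start (chr15:96951409-96954387) at 52.4% and 48.8% at P2 and 54.7% and 57.9% at P60. In eYFP+ cells it was higher at P60 by 9.06 percentage points, 95% interval 2.96 to 15.10 (Fisher's exact test, adjusted p = 0.0107), under the minimum for a call.

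Igf2r, the receptor that clears IGF2, held the 1 long stretch that was called. This stretch of 62 CpGs (chr17:12984561-12988206) lies in the introns of Igf2r and Airn, near the Igf2r start, and has no start of its own. It was at 48.4% and 47.4% at P2 and 59.7% and 59.9% at P60. The level rose by 11.38 percentage points, 95% interval 6.37 to 16.33 in eYFP- cells and by 12.50 percentage points, 95% interval 7.35 to 17.59 in eYFP+ cells (Fisher's exact test, adjusted p = 5.46e-09 and 2.45e-09). As for all stretches, the P2 level in this difference was also the level by which the stretch was chosen. With 200-bp blocks weighted alike, so that its sparse CpGs counted for more, the P60 levels were 69.8% and 68.3%, and the stretch was then no longer in the band.

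The long stretches at H19, Meg3 and Zdbf2, taken here as genes with control regions methylated on the paternal copy, lay in the same range. The stretch over the start of H19, a growth-restricting RNA, and the bases upstream of it (109 CpGs, chr7:142132021-142136596), was at 51.4% and 57.8% at P2 and 50.05% and 51.5% at P60. The P2 eYFP+ pool stood highest, and its difference to P60 was -6.29 percentage points, 95% interval -10.92 to -1.59 (Fisher's exact test, adjusted p = 0.0104), while the eYFP- pools differed by -1.30 percentage points, 95% interval -5.90 to 3.30. The stretch at the start of Meg3, an RNA expressed from the maternal copy (83 CpGs, chr12:109505654-109508022), was at 44.5% and 45% at P2 and 47.01% and 47.97% at P60. Upstream of Zdbf2, a zinc finger gene, the stretch of 131 CpGs around the RNA gene Platr12 (chr1:63298051-63304655) was at 46.4% and 44.5% at P2 and 49.02% and 45.9% at P60. The 3 lay at 44.5 to 57.8% over all pools, within the 41.5 to 60.6% of the other 20 long stretches. The grouping went by gene, and the other 20 were not sorted further, so they may hold paternally methylated regions too. Rasgrf1 had no long stretch within 10 kb, but 1 of 89 CpGs lay upstream of that window (chr9:89761533-89765273), at 53.3% and 55.1% at P2 and 56.4% and 58.1% at P60.

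Between the subtypes, no difference in the stretches of imprinted genes passed the test. In the long stretches, eYFP+ minus eYFP- differed by -6.64 to 7.44 points at P2 and by -3.16 to 3.21 at P60. The 95% interval of the difference held 0 in 21 of 23 stretches at P2 and in 22 at P60. For P60 minus P2 it held 0 in 21 of 23 in eYFP- cells and in 17 in eYFP+ cells. None of the 97 stretches was called at either stage (Fisher's exact test, called at an adjusted p under 0.05 and a difference of at least 10 points), with 3 at an unadjusted p under 0.05 at P2 and 1 at P60. With all reads summed in place of block averages, 0 were called as well. The background was also 0 calls in the genome (0% of 23577 tested stretches at P2 and 0% of 23648 at P60). In simulated pools of 72363 gene starts at the P2 depth, the test recovered 16% of differences of 20 points and 88% of 40 points, and at P60 it recovered 38% and 96%. It recovered 0% and 4% of differences of 10 points. These shares hold for gene starts, and the longer stretches have more reads.

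Outside the long stretches the level was mostly higher. The bases 1 to 3 kb outside had a median level of 64.99% and 64.25% at P2 and of 69.7% and 69.2% at P60, and in 16 of 23 they were above the stretch in all 4 pools. At Kcnq1ot1 they were at 79.9% and 77.2% at P2 and at 83.6% and 80.9% at P60. At Zdbf2 they were below the stretch, at 34.3 to 43.2%, and at Trappc9 at 42.6 to 51.0%. In the plot of single CpGs the 4 pools ran close together in the CpG-dense parts of the Peg10, Peg3, H19 and Kcnq1ot1 stretches. Toward 1 sparse edge of the Peg3 and Kcnq1ot1 stretches the P60 pools lay higher, and in the short Grb10 and Trappc9 stretches the stages ran apart.

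**Figure D2:**
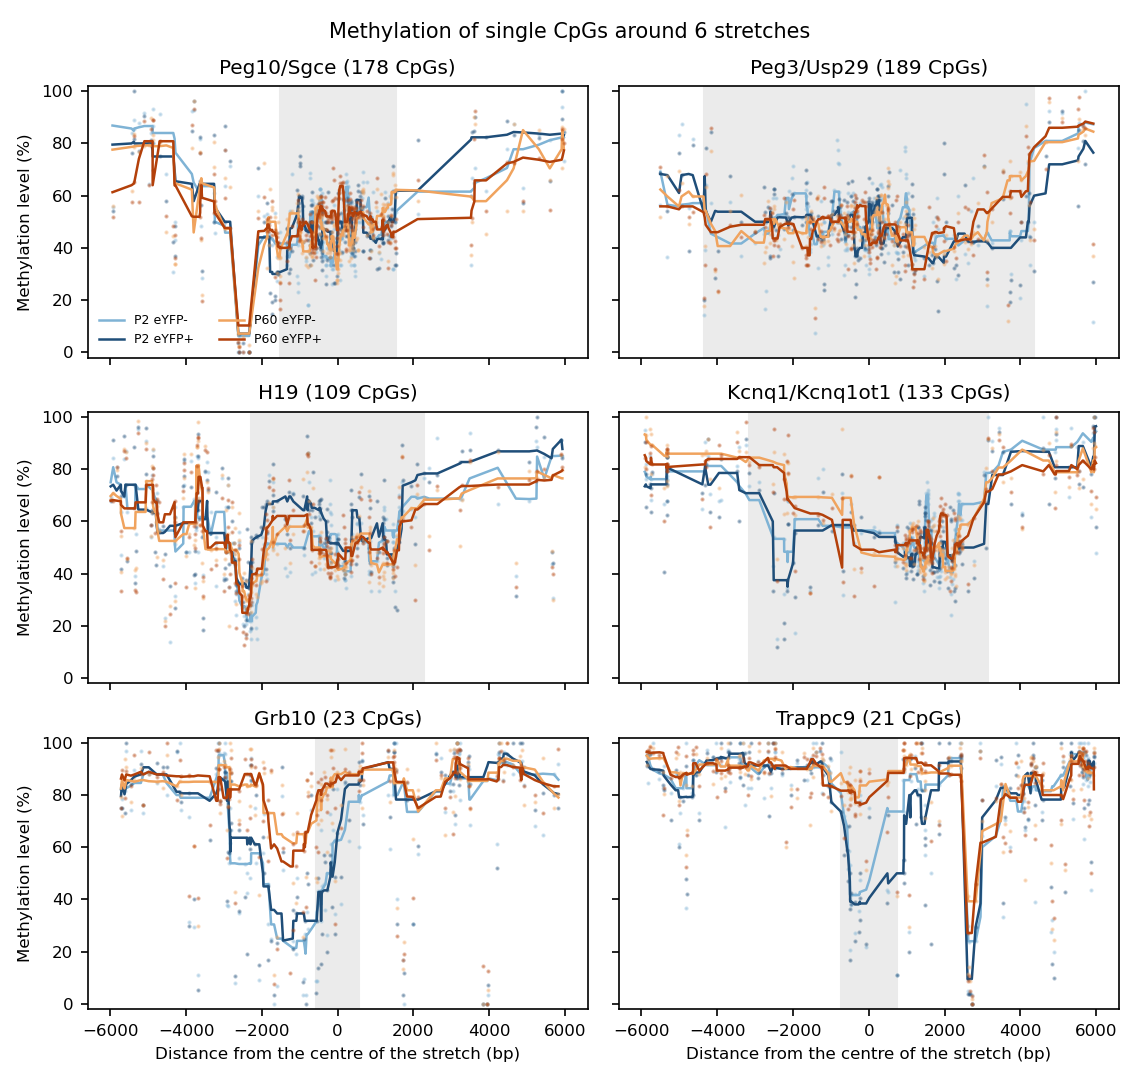
Level of single CpGs with at least 10 reads (y axis, percent) against distance from the centre of the stretch (x axis, bp) for 4 long and 2 short stretches, as points and as running medians over 11 CpGs in the 4 pools, with the called stretch in grey. The pools run close to 50% in the dense parts at Peg10, Peg3, H19 and Kcnq1ot1 and part by stage at a sparse edge of Peg3 and Kcnq1ot1, while over the short Grb10 and Trappc9 stretches the P60 lines lie above the P2 lines.

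The positions of HMRs are the measure that has replicates. HMRs covered 2.30 to 3.74% of the bases of the 23 long stretches in the P2 libraries and 0.280 to 1.99% in the P60 libraries. No single library covered more than 32.6% of any of them (Nnat, P60 eYFP+ replicate 1). Mest, Nap1l5, Kcnq1ot1 and Impact had no HMR base in any library. Of all 97 stretches, 40 had no HMR in any library, 6 were covered over at least 50% of their bases in some library, and none in all 12. Counting an overlap of at least 1 base, an HMR was found in every library at 4 stretches (Zdbf2 and Nnat among the long ones, and 1 each in Rasgrf1 and Grb10). Much of this was contact at a few bases. Cover was 0.0303% at Zdbf2 in each P60 library, and as low as 0.0731% at Rasgrf1 and 0.0782% at Grb10. At Nnat it was at least 4.18%. The P2 libraries had more HMRs in all, 57122 to 60968 against 38064 to 49975 at P60, and the part of this in the higher cover at P2 was not tested.

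**Figure D3:**
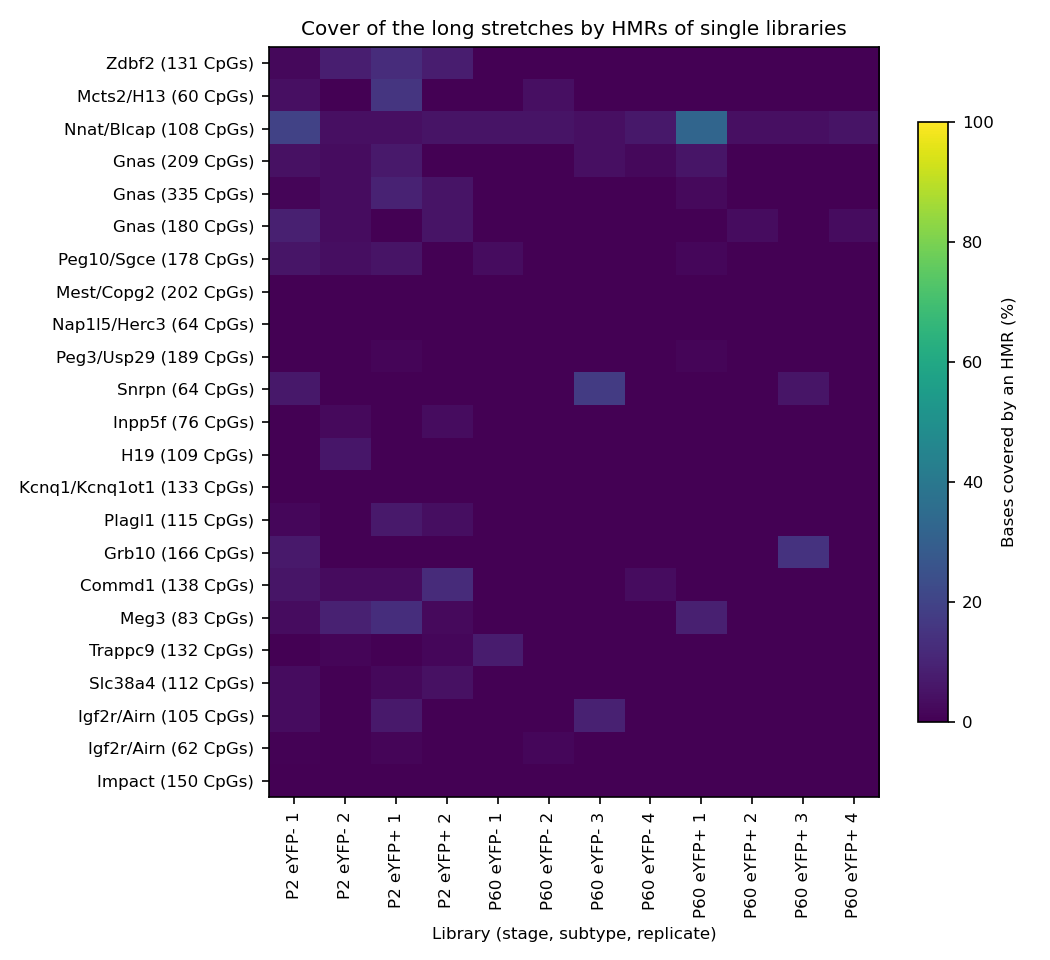
Percent of the bases of each long stretch (rows) that HMRs of single libraries cover (columns, 2 libraries per subtype at P2 and 4 at P60), on a colour scale from 0 to 100%. Most cells are at or near 0, and the highest is 32.6% for Nnat in P60 eYFP+ replicate 1.

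Of the 97 stretches in the windows of 39 genes, 72 were still at 35 to 65% in both P60 pools (74.2%), 22 were above 65% in both and none was below 35% in both. Phlda2, Slc22a18 and Ube3a had no stretch. By size, 28 of 47 stretches with 15 to 24 CpGs stayed in the band (59.6%, against 58.7% elsewhere), as did 21 of 27 with 25 to 59 CpGs (77.8%, against 66.9%). In the P60 against P2 comparison of eYFP- cells, 19 of 97 were called, all higher at P60, where 23.3% of stretches in the genome were called higher and 2.19% lower. In eYFP+ cells 24 were called, 23 higher and 1 lower, against 21.8% and 3.43%, so both counts lay near the background. The stretches of the background had been chosen by their P2 levels in the same way. Of the stretches in the windows, 15 were called in both subtypes and 28 in either, and 6 of the 28 stayed in the band.

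**Figure D4:**
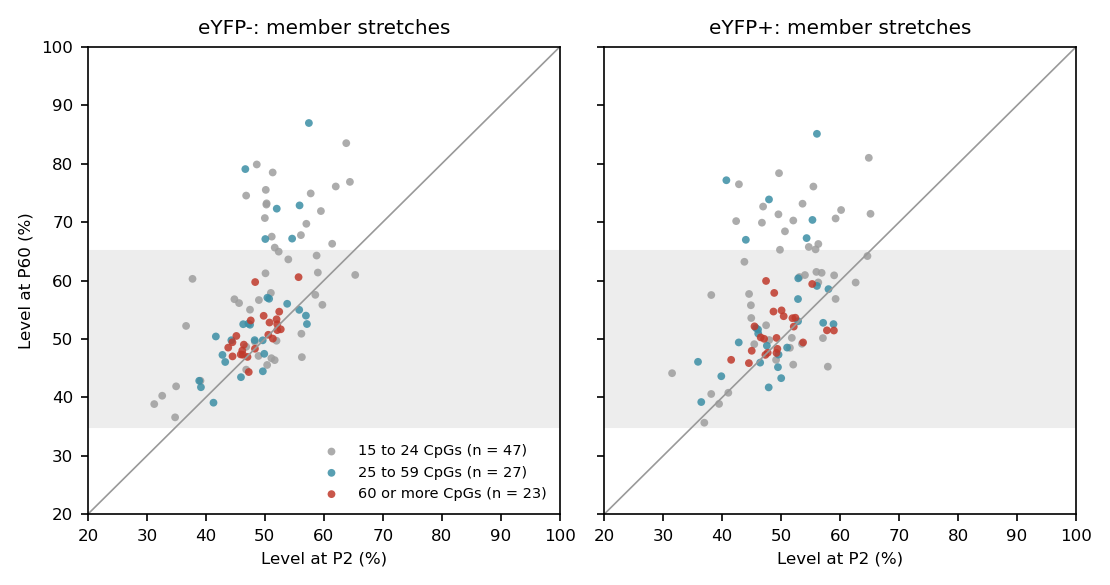
Level of the 97 intermediate stretches of imprinted genes at P2 (x axis, percent) and at P60 (y axis, percent) in eYFP- and eYFP+ cells, coloured by their number of CpGs, with the line of equal levels and the 35 to 65% band in grey. The 23 stretches with 60 or more CpGs stay within the band, and 22 shorter ones lie above it in both subtypes.

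The shorter stretches that left the band lay mostly in introns of the host genes. Between the first and second long Gnas stretches, a stretch of 40 CpGs (chr2:174134758-174137148) rose from 57.5% and 56.1% to 87.0% and 85.1%, and one of 15 CpGs beside it (chr2:174131401-174133204) was at 50.3% and 42.4% at P2 and 73.01% and 70.2% at P60. In an exon of H13, a signal peptide peptidase gene, a stretch of 30 CpGs (chr2:152549312-152549743) was at 46.7% and 40.7% at P2 and 79.1% and 77.2% at P60, called in both subtypes. A neighbouring one of 16 CpGs (chr2:152548086-152548352) was at 46.8% and 46.9% at P2 and 74.5% and 72.7% at P60, called in eYFP- cells. Within the same H13 window the Mcts2 stretch given above stayed near 45%.

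Grb10 introns held a pair of such stretches. The stretch of 23 CpGs (chr11:11883051-11884171) was at 51.3% and 49.6% at P2 and 78.5% and 78.4% at P60, and the stretch of 16 CpGs (chr11:11897998-11899178) at 50% and 49.5% at P2 and 70.7% and 71.3% at P60, both called in both subtypes. Trappc9 introns held stretches of 21 CpGs (chr15:72891503-72892982) at 48.6% and 42.8% at P2 and 79.9% and 76.5% at P60 and of 30 CpGs (chr15:72732610-72734712) at 52.02% and 47.9% at P2 and 72.3% and 73.9% at P60. All 4 left the band upward in both subtypes. Slc38a4 introns held stretches of 16 CpGs (chr15:96931438-96932861) at 63.8% and 64.9% at P2 and 83.5% and 81.02% at P60 and of 15 CpGs (chr15:96948193-96948761) at 50.3% and 46.7% at P2 and 73.2% and 69.9% at P60. A Plagl1 intron (30 CpGs, chr10:12982624-12984590) was at 55.9% and 55.3% at P2 and 72.9% and 70.4% at P60. The Commd1 window also had a stretch of 15 CpGs in an intron of Commd1b (chr11:22841933-22843370) at 51.2% and 50.6% at P2 and 67.5% and 68.4% at P60. These 4 were called in both subtypes as well.

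Kcnq1, a potassium channel gene, had 4 intronic stretches that were above 65% in both P60 pools, all called in eYFP+ cells alone. They had 27, 15, 18 and 23 CpGs. The first (chr7:142708186-142708867) was at 50.1% and 44% at P2 and 67.1% and 66.98% at P60. The second, inside the Kcnq1ot1 transcript (chr7:142826983-142828846), was at 59.5% and 53.6% at P2 and 71.9% and 73.2% at P60. The others were at 57.8% and 52.05% at P2 and 74.9% and 70.3% at P60 (chr7:142934333-142934770) and at 62.03% and 55.5% at P2 and 76.1% and 76.1% at P60 (chr7:142942898-142944203). In each the P2 eYFP+ level was the lower of the P2 values, and the difference between the subtypes' stage effects was not tested. A Usp29 intron (15 CpGs, chr7:6898221-6898881) was at 50.2% and 60.2% at P2 and 75.5% and 72.1% at P60, and a Rasgrf1 intron (16 CpGs, chr9:89853844-89855337) at 57.04% and 55.8% at P2 and 69.7% and 65.3% at P60, both called in eYFP- cells.

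The Gnas window held 4 further stretches. In introns, 19 CpGs (chr2:174148951-174151444) were at 52.4% and 54.7% at P2 and 64.95% and 65.8% at P60, called in both subtypes. Further ones of 16 CpGs (chr2:174180096-174180820) at 56.1% and 59.2% at P2 and 67.8% and 70.6% at P60 and of 27 CpGs (chr2:174177564-174178838) at 44.3% and 45.7% at P2 and 49.8% and 51.9% at P60 were not called. An exonic stretch of 19 CpGs (chr2:174170806-174171030) next to the third long stretch was at 31.2% and 38.1% at P2 and 38.8% and 40.6% at P60. Its P2 eYFP- value was the lowest of any stretch in the windows.

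Around the Igf2r start, the stretch over its first exon (36 CpGs, chr17:12988254-12988493) was at 39.2% and 36.4% at P2 and 41.7% and 39.2% at P60, and the next, over starts of Igf2r and Airn (42 CpGs, chr17:12988581-12989235), at 46.3% and 46.1% at P2 and 52.5% and 50.9% at P60. Neither was called, unlike the long stretch beside them. An Airn intron (18 CpGs, chr17:12998668-13000569) was at 64.4% and 65.2% at P2 and 76.9% and 71.4% at P60, called in eYFP- cells, and a stretch in an intron of Mrgprh (26 CpGs, chr17:13087558-13090485) at 53.8% and 52.9% at P2 and 56.02% and 56.8% at P60.

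In the Dlk1 to Dio3 cluster, Dlk1 is a growth regulator of the Notch ligand family, Rtl1 a retrotransposon-derived gene and Dio3 the thyroid hormone deiodinase. The Dlk1 stretch of 52 CpGs (chr12:109424790-109426107) was at 54.6% and 54.3% at P2 and 67.2% and 67.3% at P60, called in eYFP+ cells, and its neighbour of 15 CpGs (chr12:109421394-109422825) at 53.98% and 54.03% at P2 and 63.6% and 60.9% at P60. The first exon of Meg3 (19 CpGs, chr12:109508078-109508864) was at 32.6% and 41.03% at P2 and 40.3% and 40.8% at P60. Meg3 introns and exons held further stretches of 20 CpGs (chr12:109512259-109513814) at 58.8% and 56.3% at P2 and 64.3% and 66.3% at P60, of 18 CpGs (chr12:109518964-109519827) at 51.7% and 49.8% at P2 and 65.6% and 65.3% at P60, called in eYFP+ cells, and of 16 CpGs (chr12:109528005-109528671) at 51.02% and 56.3% at P2 and 57.9% and 59.7% at P60. Between the genes of the cluster, a stretch of 37 CpGs upstream of the Meg3 window (chr12:109494004-109494802), in the interval between Dlk1 and Meg3 that holds the known control region, was at 56.2% and 59.2% at P2 and 77.1% and 75.8% at P60. It was called higher at P60 in both subtypes, by 20.92 percentage points, 95% interval 10.18 to 31.65 in eYFP- cells and by 16.59 percentage points, 95% interval 5.80 to 27.51 in eYFP+ cells (Fisher's exact test, adjusted p = 0.0023 and 0.00569), and so left the band.

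The Rtl1 window held 5 stretches. Those of 30, 35 and 21 CpGs in introns of Rian and Rtl1 (chr12:109574178-109575705, chr12:109577461-109579343 and chr12:109579747-109580845) were at 50.4% and 58.02% at P2 and 57.1% and 58.5% at P60, at 56.97% and 52.9% at P2 and 53.99% and 53.03% at P60 and at 45.6% and 44.9% at P2 and 56.1% and 55.8% at P60. Intergenic ones of 17 CpGs (chr12:109547755-109549486) and of 15 CpGs (chr12:109550518-109552253) were at 65.3% and 62.6% at P2 and 60.96% and 59.7% at P60 and at 61.4% and 64.6% at P2 and 66.3% and 64.2% at P60. None of the 5 was called. In the Dio3 window an intergenic stretch of 30 CpGs (chr12:110250534-110253612) was at 55.8% and 57.1% at P2 and 54.98% and 52.8% at P60.

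In the H19 and Igf2 windows, the 4 shorter H19 stretches stayed in the band. A stretch over the H19 body (26 CpGs, chr7:142130881-142131841) was at 48.3% and 49.5% at P2 and 49.8% and 45.2% at P60, and one at its 3' end (16 CpGs, chr7:142129413-142130244) at 58.6% and 58.98% at P2 and 57.5% and 60.9% at P60. Elsewhere in the window, 24 CpGs (chr7:142125975-142128320) were at 48.3% and 45.4% at P2 and 49.5% and 49.1% at P60 and 23 CpGs (chr7:142124563-142125872) at 44.8% and 44.9% at P2 and 56.8% and 53.6% at P60. The stretch of 44 CpGs in the body of Igf2, the fetal growth factor gene (chr7:142206618-142208674), was at 47.2% and 46.1% at P2 and 52.6% and 51.6% at P60. Near Cdkn1c, the gene of the cell cycle inhibitor p57, 15 CpGs (chr7:143015211-143015821) were at 47.5% and 38.1% at P2 and 55.01% and 57.5% at P60, called in eYFP+ cells and still in the band.

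The Prader-Willi genes had 9 stretches away from the Snrpn control region. The Magel2 stretch (23 CpGs, chr7:62033470-62036689) was at 56.3% and 57.9% at P2 and 46.9% and 45.2% at P60 and was the 1 stretch called lower, in eYFP+ cells. The Peg12 stretch (24 CpGs, chr7:62107572-62111223) was at 56.2% and 57.1% at P2 and 50.9% and 50.1% at P60. Those near Mkrn3 (38, 18 and 27 CpGs, chr7:62056170-62057663, chr7:62068921-62069344 and chr7:62079652-62083369) were at 45.95% and 50% at P2 and 43.5% and 43.3% at P60, at 51.98% and 47.97% at P2 and 49.7% and 49.8% at P60 and at 57.1% and 58.9% at P2 and 52.5% and 52.5% at P60. The Peg12 and Mkrn3 stretches were not called. Near Ndn, 17 CpGs (chr7:61998776-61999300) were at 34.95% and 39.5% at P2 and 41.9% and 38.9% at P60, 17 CpGs (chr7:62000371-62001330) at 59.8% and 59.2% at P2 and 55.8% and 56.9% at P60 and 15 CpGs (chr7:62007125-62009239) at 48.9% and 51.8% at P2 and 47.1% and 50.2% at P60. In an intron of Snrpn a stretch of 37 CpGs (chr7:59804536-59805533) was at 47.5% and 56.1% at P2 and 52.4% and 59.1% at P60.

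Zdbf2 had 5 further stretches, all in the band at P60. Next to the long one, 30 CpGs (chr1:63305659-63307089) were at 41.7% and 42.8% at P2 and 50.4% and 49.4% at P60 and 41 CpGs (chr1:63307345-63311315) at 42.8% and 35.9% at P2 and 47.3% and 46.1% at P60, the second called in eYFP+ cells. In the first intron, 31 CpGs (chr1:63315154-63318938) were at 38.9% and 39.8% at P2 and 42.8% and 43.6% at P60. In the large exon, 24 CpGs (chr1:63348671-63348800) were at 34.8% and 36.96% at P2 and 36.6% and 35.6% at P60 and 26 CpGs (chr1:63348817-63349797) at 49.6% and 47.6% at P2 and 49.8% and 48.8% at P60. The first of the exonic pair was covered by an HMR over its full length in some library. Upstream of the window, a stretch of 79 CpGs (chr1:63287954-63293398) was at 45.8% and 41.3% at P2 and 46.4% and 46.4% at P60.

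Short stretches also lay near other control regions. At Sgce and Peg10, 41 CpGs (chr6:4737339-4740068), 19 CpGs (chr6:4740169-4742010) and 16 CpGs (chr6:4745604-4746346) were at 49.9% and 51% at P2 and 47.5% and 48.5% at P60, at 50.4% and 49.1% at P2 and 45.5% and 46.4% at P60 and at 39.1% and 31.5% at P2 and 42.8% and 44.1% at P60. At Mest, 30 CpGs (chr6:30732672-30733496) were at 50.7% and 52.9% at P2 and 56.9% and 60.4% at P60. No call was made in these. At Peg3 the last exon (17 CpGs, chr7:6708989-6710592) was at 50.1% and 55.97% at P2 and 61.2% and 61.5% at P60, and an intron of the neighbouring zinc finger gene Zim1 (52 CpGs, chr7:6695323-6699069) at 43.3% and 46.4% at P2 and 46.05% and 45.9% at P60. At Nnat the second stretch (46 CpGs, chr2:157403342-157405560) was at 41.3% and 47.9% at P2 and 39.1% and 41.7% at P60. At Mcts2 and H13 the second stretch (17 CpGs, chr2:152529337-152530366) was at 46.8% and 51.5% at P2 and 44.7% and 48.5% at P60, and an intergenic one (26 CpGs, chr2:152559657-152561752) at 49.7% and 49.5% at P2 and 44.5% and 47.3% at P60. None of these was called either.

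The rest were single stretches. The Inpp5f window reached an exon of Mcmbp (17 CpGs, chr7:128299707-128300587), at 48.99% and 53.1% at P2 and 56.7% and 60.6% at P60. The Impact window had 18 CpGs in an intron of Osbpl1a, at 51.1% and 53.5% at P2 and 46.7% and 49.2% at P60. At the annotated start of Plagl1 (18 CpGs, chr10:12935666-12936538) the level was 46.8% and 47.4% at P2 and 48.7% and 52.3% at P60. Grb10 introns held 19 CpGs (chr11:11922432-11924989) at 51.7% and 52.04% at P2 and 46.4% and 45.6% at P60 and 15 CpGs (chr11:11928065-11930299) at 58.99% and 56.9% at P2 and 61.4% and 61.3% at P60, neither called. At the annotated Grb10 start 16 CpGs (chr11:11988428-11989232) were at 37.7% and 43.8% at P2 and 60.3% and 63.2% at P60, and in an intron of Rasgrf1 18 CpGs (chr9:89801630-89802997) at 36.6% and 44.5% at P2 and 52.2% and 57.7% at P60. These last 2 were called higher at P60 in both subtypes and stayed in the band.

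At the annotated gene starts, 16 of 42 imprinted genes were at 35 to 65% in all 4 pools (38.1%), against 8.77% of all 72329 genes tested and 7.28% of protein-coding genes. Some of these starts lie in the long stretches above and share their reads. H19 was at 53.4% and 58.1% at P2 and 49.8% and 49.8% at P60, Kcnq1ot1 at 51.8% and 47.4% at P2 and 48.8% and 51.2% at P60 and Airn at 47.96% and 51.2% at P2 and 46.6% and 54.9% at P60. Peg3 was at 48.98% and 49.4% at P2 and 50.3% and 45.5% at P60, Usp29 at 52.03% and 48.2% at P2 and 50.95% and 44.05% at P60 and Peg10 at 45.4% and 48.5% at P2 and 45.97% and 49.3% at P60. Sgce was at 47.98% and 48.5% at P2 and 46.8% and 48.7% at P60, Meg3 at 42.1% and 39.8% at P2 and 41.9% and 44.9% at P60 and Gnas at 43.3% and 49.4% at P2 and 43.5% and 48.1% at P60. These 9 starts lay between 39.8% and 58.1% over all pools. Nnat was at 45.7% and 43.2% at P2 and 51.1% and 50.99% at P60, Mcts2 at 43.5% and 36.9% at P2 and 41.1% and 42.96% at P60 and Nap1l5 at 56.4% and 55.4% at P2 and 61.3% and 60.8% at P60. Igf2r, whose start has 100 CpGs, was at 39.2% and 38.6% at P2 and 43.4% and 43.7% at P60, Rtl1 at 51.4% and 55.6% at P2 and 62.1% and 59.8% at P60, and Trappc9, with 9 CpGs, at 56.7% and 60.7% at P2 and 48.4% and 48.1% at P60. Slc22a18, an organic cation transporter gene whose start has 6 CpGs, was at 53.01% and 50.3% at P2 and 52.9% and 49.02% at P60.

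**Figure D5:**
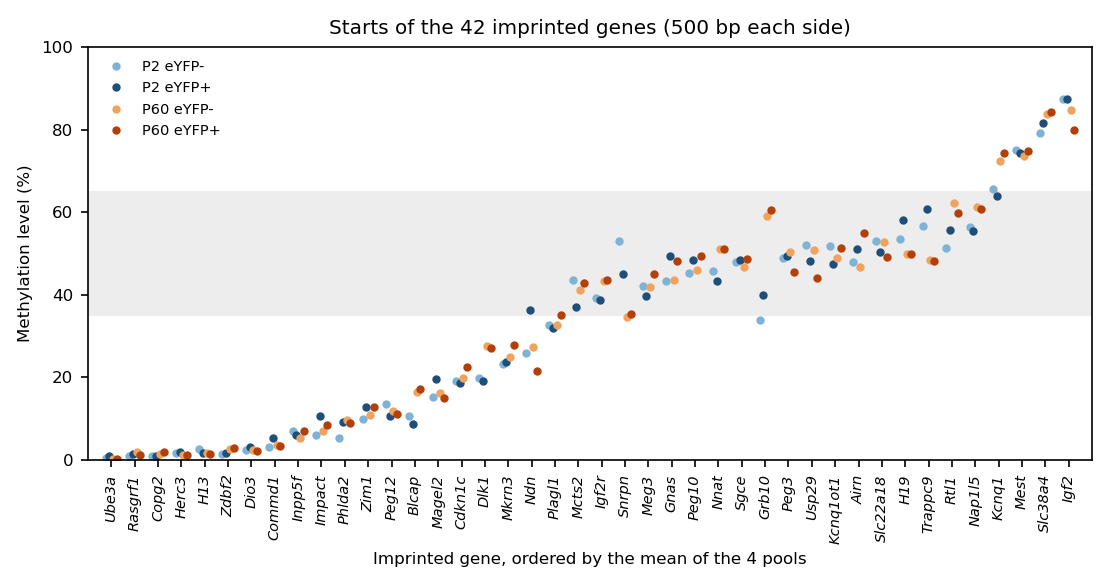
Methylation level (y axis, percent) of the annotated starts of the 42 imprinted genes, 500 bp on either side, in the 4 pools, ordered by the mean of the pools (x axis). There are 16 genes in the grey band of 35 to 65% in all pools and 10 below 10%, and Grb10 is the 1 gene whose P60 points lie over 20 points above the P2 point of the same subtype in both.

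Grb10 was the 1 imprinted gene whose start was called between the stages. It was at 33.9% and 39.9% at P2 and 59.1% and 60.5% at P60, and rose by 25.2 points in eYFP- cells and by 20.6 points in eYFP+ cells (Fisher's exact test, adjusted p = 0.0144 and 0.0136), with the 2 P60 pools above both P2 pools. With 250 bp on each side of the start in place of 500, no imprinted gene start was called between the stages, Grb10 included. This start is the upstream one, about which the stretch of 16 CpGs lay, and not the inner starts in the stretch of 166 CpGs, which stayed near 50%. In the genome 3.02% of gene starts were called between the stages in eYFP- cells and 3.22% in eYFP+ cells. Of the 42 imprinted genes 3 were at an unadjusted p under 0.05 in each subtype. Between the subtypes none was called and none was at an unadjusted p under 0.05 (0% of 72363 starts called at P2 and 0% of 73450 at P60), and the differences were at most 10.5 points at P2 and 8.28 points at P60.

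The other starts in the band in some pool had few CpGs or lay at its edge. Snrpn, whose annotated start has 5 CpGs and lies upstream of the control region, was at 53.1% and 45.1% at P2 and 34.6% and 35.4% at P60. Ndn, with 2 CpGs, was at 25.9% and 36.4% at P2 and 27.3% and 21.5% at P60. Plagl1 was at 32.8% and 31.9% at P2 and 32.6% and 35.1% at P60 and Kcnq1 at 65.7% and 64.01% at P2 and 72.3% and 74.3% at P60. None of these 4 was called. Starts below 10% in all pools were those of 10 genes, among them Ube3a, a ubiquitin ligase gene, at 0.289 to 1.03%, Copg2 at 0.990 to 2.02%, Dio3 at 2.24 to 3.05%, H13 at 1.32 to 2.75%, Rasgrf1 at 0.848 to 1.82%, Zdbf2 at 1.53 to 2.92% and Herc3 at 1.11 to 1.86%. Inpp5f and Commd1 and Phlda2, the last a placental growth regulator, were below 10% as well. Impact, at 6.05 to 10.6%, was just above. Those above 65% in all pools were the annotated starts of Igf2 (80.0 to 87.4%, 4 CpGs), Mest (73.6 to 75.1%, 10 CpGs) and Slc38a4 (79.2 to 84.3%).

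Cdkn1c (18.7 to 22.6%), Magel2 (14.99 to 19.6%), Mkrn3 (23.1 to 27.9%), Peg12 (10.7 to 13.6%), Dlk1 (19.1 to 27.7%), Zim1 (9.82 to 12.7%) and Blcap (8.74 to 17.2%) stood between the unmethylated and the intermediate starts. Across all annotated transcript starts of the 42 genes, 150 of 403 were in the band in all pools, and 29 genes had such a start, against 6.91% of all 306329 transcript starts in the genome. Mest was an example, with its annotated gene start methylated and inner starts inside the stretch of 202 CpGs. Transcript starts of 1 gene often share CpGs.

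A second list of 32 imprinted or neighbouring genes was read in the same way, of which 30 were matched by symbol. The starts of Peg13, Ddc and Cdh15 were at 35 to 65% in all pools. Peg13, an RNA in Trappc9, was at 48.4% and 42.3% at P2 and 46.1% and 48.4% at P60. Ddc, next to Grb10, was at 52.0% and 49.1% at P2 and at 56.4% and 58.5% at P60. Slc22a2, next to Igf2r, was the 1 called, rising from 51.6% and 48.9% to 80.0% and 75.1% (Fisher's exact test, adjusted p = 2.19e-08 and 6.37e-06). None was called between the subtypes.

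HMRs in the windows were low regions by definition, and more of them were called higher than lower at P60, as elsewhere in the genome. The 209 HMRs lay near 41 genes, with none near Mest, and 103 had been called in all 4 pools. Their median level was 14.7% and 15.2% at P2 and 22.6% and 23.5% at P60. In eYFP- cells 51 of 208 tested HMRs were called higher and 4 lower at P60, where 17.7% of tested HMRs of the genome were called higher and 1.07% lower. In eYFP+ cells 49 of 209 were called higher and 6 lower, against 16.6% and 1.5%. Of these, 44 were called in both subtypes. The shares called in either direction lay above those of the genome in both subtypes, and the reason was not tested. Since the study called its HMRs on the same reads, those of P2 were low at P2 by choice.

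The largest rises were at Trappc9, Kcnq1 and Gnas. An HMR of 6 CpGs in Trappc9 (chr15:72587046-72587199) was at 14.6% and 31.8% at P2 and 69.7% and 71.7% at P60. One of 7 CpGs in Kcnq1 and Kcnq1ot1 (chr7:142806812-142807281) was at 15.8% and 16.1% at P2 and 68.4% and 67.99% at P60. One of 15 CpGs in Gnas, over a start of Gnasas1 (chr2:174134245-174134792), was at 23.2% and 18.96% at P2 and 71.7% and 74.6% at P60. Each ended far above its P2 level in both subtypes. In eYFP+ cells the 3 largest were the Gnasas1 and Kcnq1 HMRs and a Gnas HMR of 6 CpGs (chr2:174133162-174133611) at 23.2% and 14.9% at P2 and 65.3% and 64.2% at P60. The largest falls in eYFP- cells were at Grb10 (chr11:11923406-11923767, 35.8% and 32.7% at P2 and 15.7% and 15.8% at P60), at H13 (chr2:152517104-152517401, 21.5% and 20.9% at P2 and 6.20% and 5.93% at P60) and near Igf2 (chr7:142229240-142230027, 20.4% and 20.9% at P2 and 6.63% and 7.45% at P60). Those in eYFP+ cells were at H13 (chr2:152516091-152516373, 29.8% and 32.5% at P2 and 17.8% and 14.9% at P60, and the HMR just given) and over a start of Slc38a4 (chr15:96914203-96918624, 15.4% and 21.2% at P2 and 6.43% and 7.30% at P60). None of the 208 HMRs tested at P2, or of the 209 at P60, was called between the subtypes, with 9 and 3 at an unadjusted p under 0.05 (0% of 83484 HMRs called at P2 and 0% of 84129 at P60). With all reads summed in place of block averages, which counts neighbouring CpGs of 1 fragment separately, 14 were called at P2 and 3 at P60.

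The study had itself listed differentially methylated regions (DMRs) between the subtypes, and gated at 50 bp and 2 differing CpGs they were counted in these windows. Of the 42 genes, 19 had a gated P2 DMR and 7 a P60 DMR, against 8.91% and 5.18% of all genes. The imprinted genes were longer, with a median of 34200 bases against 4196, and the part of length in this was not tested. There were 22 DMRs at P2, of which 14 lay in intermediate stretches, 10 of these in long ones, and 10 at P60, of which 3 lay in stretches and none in a long one. The listed P2 DMRs were 56 to 1094 bp long.

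The largest P2 difference was in the Slc38a4 stretch (chr15:96952901-96952988), where all 10 CpGs had been scored as differing. Its level was 64.1% in eYFP- and 24.6% in eYFP+ cells at P2 on 153 and 187 reads, and 45.7% and 56.5% at P60. At the Airn start (chr17:12960877-12960939, 8 of 8 CpGs differing) it was 61.0% and 25.8% at P2 and 57.1% and 45.6% at P60. In the third Gnas stretch (chr2:174170698-174170822, 15 of 23 CpGs differing) it was 24.4% and 55.5% at P2 and 46.5% and 55.4% at P60. In each of the 3, 1 of the 2 P2 libraries of the lower subtype had an HMR there and no library of the other subtype did.

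Over the 10 P2 DMRs in long stretches, the subtypes differed by 13 to 39.5 points at P2, which chose them, with a median of 24.1, and by 0.180 to 11.6 points at P60, with a median of 5.20. The sign was the same at P60 in 6 of 10. An HMR was present in both P2 libraries of the lower subtype at 3 of the 10, at Zdbf2, Gnas and Peg10, and at 1 of these, Peg10, it was in neither library of the other subtype. In the P60 DMRs the differences at P60 were 3.56 to 15.6 points.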

How the data were processed

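The authors had trimmed the reads of the 12 libraries (Trim Galore 0.6.6, cutadapt 1.16 and SAMtools 1.5 per the submitters' processing notes), mapped them to mm39 with abismal, and called methylation and HMRs with MethPipe, whose version was not given in the sources used here. The deposited counts are methylated and unmethylated reads per CpG, pooled by the authors per subtype and stage, and single libraries have HMR positions alone. The authors' own probabilities of a difference were not used. The deposited DMR lists, which are the study's own comparison of the subtypes, were used for their positions.

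Genes came from GENCODE M39. A level is methylated over all reads. For tests, reads were averaged over the CpGs of each 200-bp block and summed over blocks, so that CpGs of 1 fragment did not count separately. Each pair of pools was tested with Fisher's exact test, two-sided (scipy 1.17.1, Python 3.11.15), Benjamini-Hochberg adjusted over all features whose CpGs averaged 10 or more reads, and called at an adjusted p under 0.05 and a difference of at least 10 points. These tests compare pools and not mice. Wilson and Newcombe 95% intervals are centred on levels over all reads and take the number of block reads as their count. Since reads carry no molecular identifiers, they cover counting error only. The tests compare block-averaged levels instead, so a p-value can disagree with the difference and interval printed beside it. Intermediate stretches needed at least 10 reads per CpG, neighbours at most 500 bp apart and, in each window of 10, at least 8 CpGs at 25 to 75%.

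The members and lists were chosen with earlier results of these data known. Values were given for each stretch in the windows, for starts at 35 to 65% in any pool, and for called starts and HMRs, the 3 largest in each direction. The test was tested on simulated data. Alternatives were the width of the start, the band, the number of CpGs, the pool that called the stretches, summed reads, every transcript start, stricter HMRs and DMRs, and leaving out each library.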

Additional observations from a re-analysis of the deposited data

How the results depend on the processing

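Of 125 recomputed values, all counts or percents, 95 stayed close to the value given. The cause of the other 30 was not tested unless the setting itself gives it. A count was taken as close within a fixed ratio, and a percent within an interval around the value given. The 95 include subtype counts that stayed at 0 and small counts with a single library left out. Such values had little room to move. With 250 bp on each side of the start no start was called between the stages, 0 in eYFP- and 0 in eYFP+ cells. With all reads summed 3 and 3 were called, and over every transcript start 4 and 5 genes. A band of 40 to 60% left 10 imprinted starts in it. With all reads summed, HMR calls were 14 at P2 and 3 at P60 between the subtypes, and 86 and 93 between the stages, and stretch calls in eYFP- cells were 29. HMRs of at least 200 bp were in every library at 2 stretches. With at least 3 differing CpGs, 12 genes had a P2 DMR in place of 19. With at least 10, 25 and 60 CpGs, the windows held 224, 50 and 23 stretches, of which 58.93%, 88% and 100% stayed in the band, against 57.51%, 67.08% and 78.38% elsewhere. When stretches were called on the P60 pools and read at P2, 73.83% stayed in the windows and 46.65% elsewhere. Called on the P2 eYFP- pool alone, the shares were 66.06% and 51.21%. With a band of 40 to 60% they were 71.74% and 43.88%, and over block-averaged reads 74.23% and 55.98%. With a band of 30 to 70% they were close together, at 76% and 74.01%. Among stretches with at least 60 CpGs, 1 was called in eYFP- and 1 in eYFP+ cells. Leaving out each library in turn left 5 to 6 stretches covered over at least 50% in some library, and 4 with an HMR in every library. No paired analysis was possible because the tests use read counts pooled over replicates, and HMR cover in single libraries was given with no test. The limits of 60 CpGs and block-averaged levels were chosen after seeing the data.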

Other observations

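Outside the 10 kb windows, 47 further intermediate stretches lay 10 to 50 kb from the imprinted genes. Of these, 31 were still at 35 to 65% in both P60 pools, 2 had at least 60 CpGs, and none was below 35% in both P60 pools.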
